A study of Homo sapiens with 6 samples.

Results

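Glycolysis splits glucose into pyruvate, and the genes described here carry glucose into the cell, run that pathway and decide what becomes of the pyruvate. The group holds 33 genes, chosen by symbol from the 58735 rows of the deposited count table, and all 33 passed the filter on low counts. It covers glucose transporters (SLC2A1, SLC2A3, SLC2A6), the enzymes from hexokinase to lactate dehydrogenase, the kinases, phosphatase and subunits of the pyruvate dehydrogenase system, the mitochondrial pyruvate carrier, and TXNIP, a glucose-responsive brake on glucose uptake.

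The cells are MDA-MB-231, an established human triple-negative breast cancer line. There are 3 libraries labelled Control and 3 labelled PM2.5 (airborne particles up to 2.5 micrometres across), from RNA taken after 48 h, and the labels name no other treatment or genetic change. For particle dose, control vehicle and culture batches: not given in the sources used here. In the design text the libraries are called biological replicates, without saying how separate the cultures were, so p-values measure the spread between these libraries. In bulk RNA, fewer expressing cells and less RNA per cell cannot be told apart. Total counts ran from 31846136 to 34691009 per library.

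Of the markers of the line, VIM stood at 1921 to 2696 CPM (counts scaled to library size with TMM factors), while ESR1 had 0 counts, PGR 10 and CDH1 3 counts over the 6 libraries. ERBB2, the HER2 gene, was detected, at 64.9 ± 7.0 CPM in Control and 43.1 ± 5.5 CPM in PM2.5 (SD, n = 3 each), with no overlap. Of the markers of other cell types, PTPRC, CD3E and DCN had 0 counts, CDH5 had 4 counts in all, and PECAM1 (43.7 ± 5.94 CPM in Control, 55.1 ± 2.26 in PM2.5), COL1A1 (23.2 ± 4.39 and 23.5 ± 2.30) and CD14 (1.77 ± 0.58 and 3.08 ± 0.60) were detected (SD, n = 3 each). The particle-inducible genes HMOX1 (812 ± 58.2 CPM in Control, 51.3 ± 6.0 CPM in PM2.5, SD, n = 3 each) and CYP1A1 (6.28 ± 1.73 and 2.73 ± 0.65 CPM) stood lower under the PM2.5 label, so each direction given here is for the libraries as labelled. Whether the labels were exchanged was not tested, and an exchange would turn every rise given here into a fall and every fall into a rise. Control replicate 3 stood apart on the second principal component (15% of the variance), with a score of -36.94 against 16.48 and 14.83 in Control replicates 1 and 2.

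In glycolysis the first steps spend ATP to trap and split glucose, and the later steps, from glyceraldehyde phosphate to pyruvate, earn it back. Pyruvate is then reduced to lactate in the cytosol or carried into mitochondria, where pyruvate dehydrogenase turns it into acetyl-CoA and PDK kinases switch that enzyme off. Many of these genes are known targets of hypoxia-inducible factors, and tumour cells often run glycolysis to lactate even with oxygen present.

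Of the 33 genes 10 rose and 5 fell in the PM2.5 libraries, by edgeR's quasi-likelihood test at an adjusted p under 0.05 over all genes tested. That is 45.5% of the group, where 31.9% of all 14975 genes tested were called. The members were chosen with earlier results of these data known, so the comparison is a description and not a test. The 10 that rose stand against 16.1% of all genes called higher. The 5 that fell are close to the share of all genes called lower, 15.8%. The groups of libraries did not overlap for 11 genes that were higher and 7 that were lower, where 21.4% and 22.9% of all genes did so (44.3% in either direction). The 7 are again close to the share of all genes. Of the genes that rose 6 did so by at least 1.5-fold, where 9.76% of all genes were called and higher by that much. The median log2 fold change of the group was 0.02, and that of all tested genes was -0.01. Without PM2.5 replicate 1 the number that fell was 3, and over all genes 1448 fell in place of 2365.

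The genes that rose were PFKFB3, PFKFB4, ALDOA, PGK1, PGAM1, ENO1, ENO2, LDHA, PDK1 and TXNIP. Those that fell were HK1, PFKM, PFKFB2, PDP1 and MPC1. Of the 7 genes from TPI1 to PKM 4 rose and 0 fell, beside 16.1% of all genes called higher. None of the 3 glucose transporters passed the test. Of the 6 genes from hexokinase to phosphofructokinase 2 fell and 0 rose, beside 15.8% of all genes called lower. The 33 genes together took 1.78% ± 0.07 of all counts in Control and 2.68% ± 0.13 in PM2.5 (SD, n = 3 each), and without TXNIP 1.69% ± 0.07 and 2.26% ± 0.13.

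**Figure D1:**
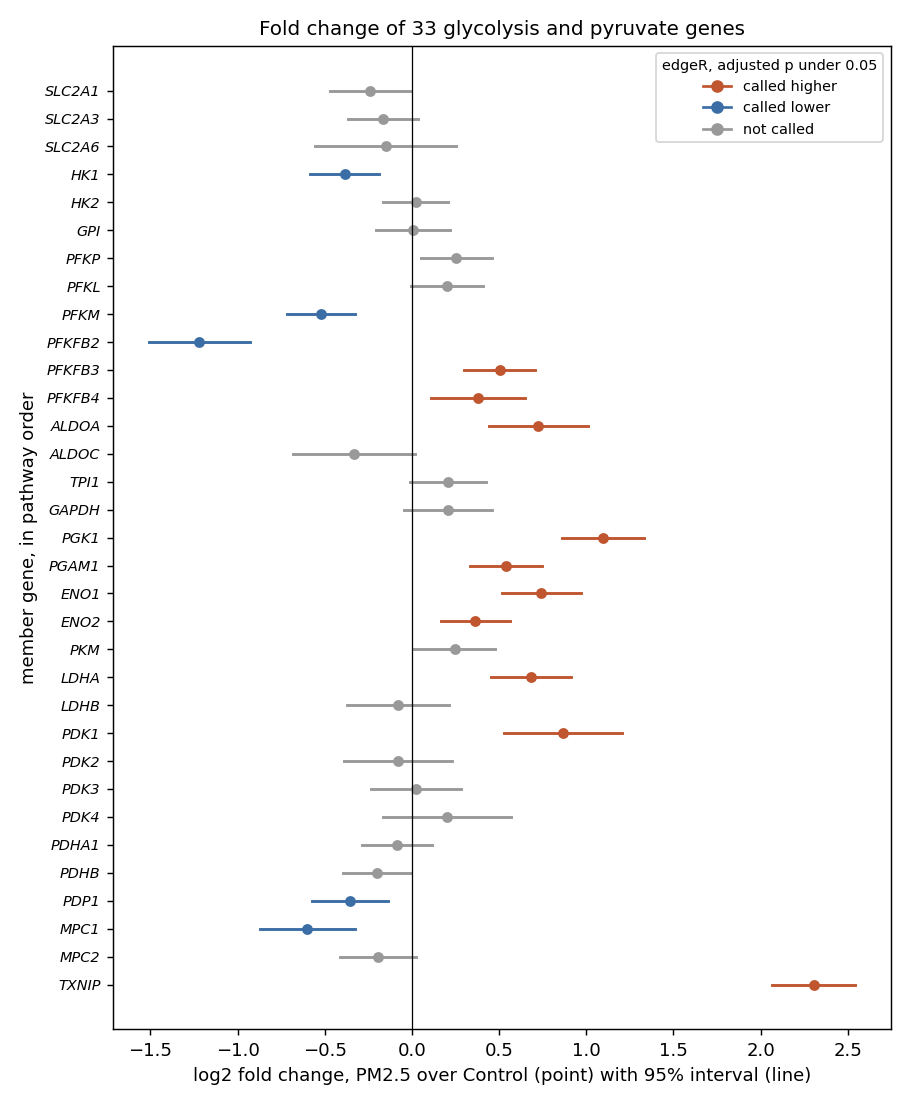
Log2 fold change of each of the 33 genes, PM2.5 over Control (x axis), in pathway order from uptake to TXNIP (y axis); points are edgeR estimates, lines are 95% intervals, and colour shows the call. TXNIP lies farthest right at 2.30 and PFKFB2 farthest left at -1.22.

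Promoters of 4 genes that rose are shown because of the letters they hold: a pair of CACGNG boxes in the TXNIP promoter and the core hypoxia motif ACGTG in those of PGK1, LDHA and PFKFB3. Each is the 250 bases before a RefSeq start (GRCh38.p14), written 5′ to 3′ on the gene's strand, with the matches in capitals. The windows are TXNIP at chr1:145996580-145996829 on the minus strand, and PGK1 at chrX:78103998-78104247, LDHA at chr11:18394313-18394562 and PFKFB3 at chr10:6202682-6202931 on the plus strand.
TXNIP: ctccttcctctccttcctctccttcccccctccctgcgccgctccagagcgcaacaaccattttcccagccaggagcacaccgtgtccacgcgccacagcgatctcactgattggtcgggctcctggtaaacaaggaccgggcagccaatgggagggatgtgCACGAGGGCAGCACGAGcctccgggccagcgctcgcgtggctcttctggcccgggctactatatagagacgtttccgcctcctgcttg
PGK1: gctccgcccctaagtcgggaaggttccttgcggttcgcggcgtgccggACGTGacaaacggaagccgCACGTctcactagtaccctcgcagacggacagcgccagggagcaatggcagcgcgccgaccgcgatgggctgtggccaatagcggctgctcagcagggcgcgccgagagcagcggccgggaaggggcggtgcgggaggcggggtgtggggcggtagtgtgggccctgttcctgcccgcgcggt
LDHA: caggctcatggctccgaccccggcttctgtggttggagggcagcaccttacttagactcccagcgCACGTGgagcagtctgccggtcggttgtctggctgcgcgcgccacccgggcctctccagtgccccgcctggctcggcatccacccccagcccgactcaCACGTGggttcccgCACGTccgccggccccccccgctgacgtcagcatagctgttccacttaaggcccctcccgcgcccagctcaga
PFKFB3: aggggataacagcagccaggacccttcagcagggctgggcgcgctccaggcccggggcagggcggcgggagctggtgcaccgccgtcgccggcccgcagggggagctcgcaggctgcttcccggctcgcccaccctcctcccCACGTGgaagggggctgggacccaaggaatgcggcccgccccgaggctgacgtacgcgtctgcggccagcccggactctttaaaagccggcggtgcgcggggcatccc

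In TXNIP the capitals mark 2 copies of CACGNG with 5 bases between them, the known form of a carbohydrate response element bound by MondoA (MLXIP) or ChREBP (MLXIPL) with MLX. This motif was added after the values were seen. The match begins at base -88 from the TXNIP start, and 16 of 35116 RefSeq windows of this length (0.046%) hold it on either strand. Of the 30 genes with a window TXNIP alone held it. For a motif chosen after the rise of TXNIP was seen, this and the rarity are a description and not a test.

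In the other promoters the capitals mark ACGTG on either strand, including where it is part of the E-box CACGTG. PGK1 holds it at bases -202 and -183 from its start, LDHA holds CACGTG at -185 and -87 and a further ACGTG at -73, and PFKFB3 holds CACGTG at -108. RefSeq windows were matched for 30 of the 33 genes, and 17 of the 30 (56.7%) held ACGTG in at least 1 window, where 5935 of 27305 genes (21.7%) did. CACGTG, which contains ACGTG on both strands, was held by 8 of the 30 (26.7%) and by 7.73% of all genes. Counted by window, 20 of 57 member windows (35.1%) held ACGTG, against 18.5% of all windows. By call, ACGTG was found in 7 of 10 genes that rose, 1 of 3 that fell and 9 of 17 that did not pass the test. LDHA and PFKFB3 each have another window, not printed, with no match. TXNIP counts here through another window, as the printed one holds no ACGTG. A match describes these letters only and does not show a bound site.

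TXNIP, which binds thioredoxin and lowers glucose uptake at the plasma membrane, changed most. It held 888, 879 and 739 CPM in the Control libraries and 4106, 4046 and 4227 CPM in the PM2.5 libraries. The groups lay far apart, and the libraries within PM2.5 lay close together. The log2 fold change was 2.30 ± 0.11 (SE, n = 3 each), or 4.94-fold (adjusted p = 4.93e-10 by edgeR), and its p ranked 16 among all tested genes. TXNIP lies at chr1:145992435-145996600 on the minus strand (GRCh38, ENSG00000265972), and no other gene's exons cover its exons. ARRDC4, a related arrestin and another known MondoA target that was listed among the other pathway genes, rose 4.12-fold, from 4.60, 4.13 and 3.27 CPM to 16.7, 17.6 and 15.2 CPM (adjusted p = 1.18e-07 by edgeR). Of the transcripts of the regulators, MLXIP stood at 63.4 ± 3.12 and 64.9 ± 2.37 CPM (SD, n = 3 each) and did not pass the test. MLXIPL, at 0.58 ± 0.10 and 0.62 ± 0.11 CPM, did not pass either, and MLX fell by 0.29 ± 0.10 (SE) on the log2 scale. The MLX call was lost in 5 of 6 fits that left out 1 library, all except that without Control replicate 3.

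SLC2A1 and SLC2A3 encode the glucose transporters GLUT1 and GLUT3 of the plasma membrane. SLC2A1 held 452, 426 and 418 CPM in Control and 354, 318 and 426 CPM in PM2.5. PM2.5 replicate 3 reached the Control range, and the log2 fold change of -0.24 (95% interval -0.47 to -0.01) did not pass the test over all genes (adjusted p = 0.106 by edgeR), but did without that library (-0.36, adjusted p = 0.0183). SLC2A3 held 500, 509 and 448 CPM in Control and 427, 418 and 456 CPM in PM2.5. Its groups overlapped and its log2 fold change was -0.16 (95% interval -0.37 to 0.04), which passed only when Control replicate 3 was left out (-0.22, adjusted p = 0.0297). SLC2A14, a near copy of SLC2A3, had 138 to 189 counts per library, so the split of reads between them is uncertain. SLC2A6, a transporter of lysosomal membranes, lay at 4.995 to 7.40 CPM in all 6 libraries, with its highest value in Control replicate 3.

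Hexokinase traps glucose as glucose 6-phosphate, and the housekeeping form HK1 fell while the inducible form HK2 did not pass the test. HK1 held 507, 503 and 496 CPM in Control and 370, 370 and 413 CPM in PM2.5. The groups did not overlap, and the log2 fold change was -0.39 ± 0.09 (SE, adjusted p = 0.00496 by edgeR), a call lost without PM2.5 replicate 1 (adjusted p = 0.0738). HK2 stayed between 123 and 136 CPM in all libraries, and its log2 fold change of 0.02 had a 95% interval of -0.17 to 0.21. Per kilobase of gene length HK2 therefore made up 20.97% ± 0.63 of the hexokinase transcripts in Control and 26.0% ± 0.59 in PM2.5 (SD, n = 3 each). GPI, the isomerase of the next step, held 393 to 459 CPM in Control and 399 to 471 CPM in PM2.5, with groups that overlapped throughout.

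Phosphofructokinase commits sugar to glycolysis and is assembled from platelet (PFKP), liver (PFKL) and muscle (PFKM) subunits. PFKM fell from 96.2, 94.0 and 87.5 CPM to 63.7, 61.5 and 68.2 CPM. The groups did not overlap, with a log2 fold change of -0.52 ± 0.09 (SE, adjusted p = 0.000476 by edgeR). PFKP, the main form, held 609, 574 and 573 CPM in Control and 718, 641 and 736 CPM in PM2.5. All PM2.5 libraries lay above all Control libraries, but its log2 fold change of 0.25 (95% interval 0.05 to 0.46) fell just short of the threshold (adjusted p = 0.0544 by edgeR). PFKP passed in 5 of 7 other settings, DESeq2 (adjusted p = 0.0204) and limma-voom (0.0477) among them, but not with the replicate block (0.0952) or with no filter (0.0949). It passed in 2 of 6 fits that left out 1 library, with adjusted p from 0.0359 to 0.219. PFKL held 180 to 199 CPM in Control and 196 to 238 CPM in PM2.5 and did not pass. PFKM made up 8.17% ± 0.29 of the phosphofructokinase transcripts per kilobase in Control and 4.97% ± 0.19 in PM2.5, and PFKP 78.2% ± 0.12 and 81.3% ± 0.44 (SD, n = 3 each).

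The bifunctional PFKFB enzymes make and remove the sugar phosphate that activates phosphofructokinase, and their 3 forms moved in different directions. PFKFB2, known as the heart form, fell from 16.8, 18.2 and 15.7 CPM to 7.43, 7.47 and 6.88 CPM. This was the largest fall of the 33 genes, 2.33-fold, with a log2 fold change of -1.22 ± 0.14 (SE, adjusted p = 5.95e-06 by edgeR) and groups far apart. PFKFB3, the form with the strongest kinase activity, rose from 87.0, 81.1 and 91.3 CPM to 124, 112 and 132 CPM. Its groups did not overlap and its log2 fold change was 0.50 ± 0.10 (SE, adjusted p = 0.000839 by edgeR).

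PFKFB4 held 42.2, 37.9 and 54.2 CPM in Control and 57.3, 52.4 and 65.1 CPM in PM2.5. Control replicate 3 lay above PM2.5 replicate 2, so the groups overlapped. The call (log2 fold change 0.38 ± 0.13, SE, adjusted p = 0.0317 by edgeR) was lost without Control replicate 1 (0.1004), Control replicate 2 (0.167), PM2.5 replicate 1 (0.0700) or PM2.5 replicate 3 (0.119). It was also lost with library totals alone (0.0637). Of the PFKFB transcripts per kilobase, PFKFB2 took 7.24% ± 1.17 in Control and 2.37% ± 0.30 in PM2.5, and PFKFB3 61.3% ± 2.02 and 66.2% ± 0.53 (SD, n = 3 each).

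**Figure D2:**
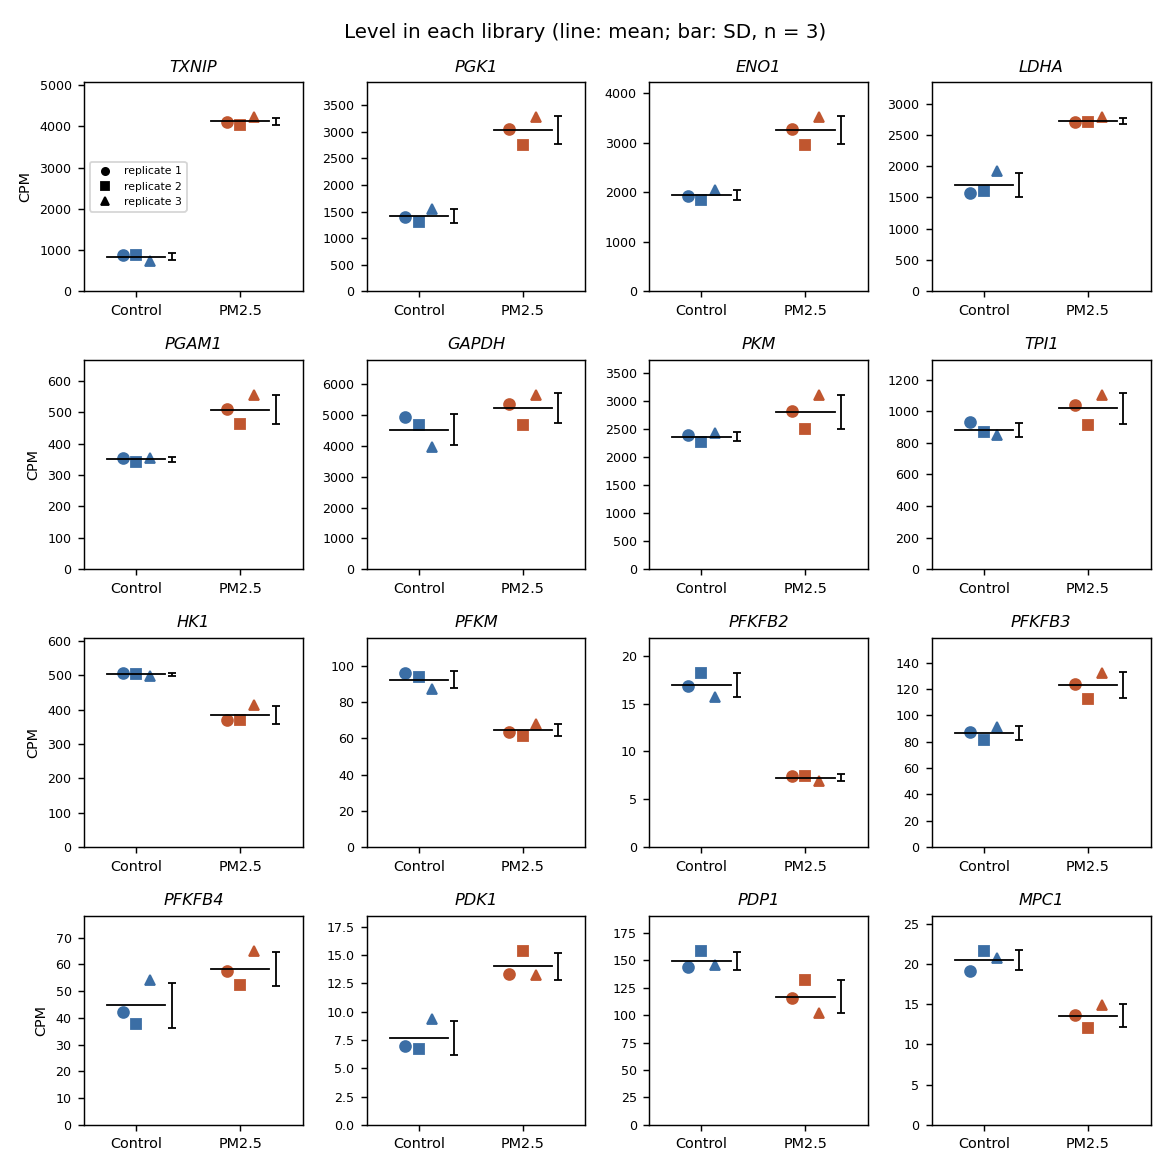
CPM of 16 of the genes (y axes from 0) in each Control and PM2.5 library (x axes); symbols are replicates, lines are means and bars are SD over 3 libraries. TXNIP, PGK1, ENO1, LDHA and PFKFB2 show wide gaps between the groups, and GAPDH, TPI1 and PFKFB4 overlap.

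Aldolase splits the sugar into triose phosphates. ALDOA, the ubiquitous form, rose from 16.0, 14.1 and 12.5 CPM to 24.0, 20.7 and 25.7 CPM (log2 fold change 0.72 ± 0.13, SE, adjusted p = 0.00066 by edgeR), with no overlap. Exons of other genes cover 53.5% of its exonic bases, 42.3% on the same strand from the single gene AC093512.2, which had only 21 to 54 counts per library. How reads under overlapping genes were counted is unknown here, so the level of ALDOA beside that of other genes is uncertain. This holds for its place among the levels per kilobase and for its share of the aldolase transcripts. ALDOC, the brain form, held 11.8 to 16.3 CPM in Control and 9.64 to 13.99 CPM in PM2.5 and did not pass, but did without Control replicate 3 (-0.47, adjusted p = 0.038) or PM2.5 replicate 3 (-0.49, adjusted p = 0.0388).

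Among the enzymes that earn ATP, PGK1 rose most. Phosphoglycerate kinase 1 (chrX:77910739-78129296, plus strand, ENSG00000102144) makes the first ATP of the pathway, and its transcript went from 1403, 1303 and 1552 CPM to 3059, 2758 and 3278 CPM. The lowest PM2.5 library lay well above the highest Control library. The log2 fold change was 1.09 ± 0.11 (SE, n = 3 each), or 2.14-fold (adjusted p = 1.87e-06 by edgeR).

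PGAM1, the mutase that moves the phosphate along the sugar acid, rose from 354, 341 and 354 CPM to 509, 461 and 555 CPM (log2 fold change 0.54 ± 0.10, SE, adjusted p = 0.000538 by edgeR). ENO1, the main enolase, rose from 1929, 1851 and 2048 CPM to 3274, 2959 and 3515 CPM (0.74 ± 0.11, SE, adjusted p = 7.63e-05). In both genes the groups did not overlap, and PM2.5 replicate 2 was the lowest of its group. ENO2, the neuronal enolase, rose less, from 450, 429 and 469 CPM to 580, 548 and 605 CPM (0.36 ± 0.09, SE, adjusted p = 0.00769 by edgeR), a call lost without Control replicate 2 (0.0556) or PM2.5 replicate 1 (0.0548). ENO1 made up 77.8% ± 0.17 of the enolase transcripts per kilobase in Control and 82.0% ± 0.54 in PM2.5 (SD, n = 3 each).

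The other 3 enzymes of this stretch were higher on average without passing the test. GAPDH, the dehydrogenase that is widely used as a reference gene, held 4949, 4677 and 3974 CPM in Control and 5353, 4692 and 5655 CPM in PM2.5. PM2.5 replicate 2 lay within the Control range, and the log2 fold change of 0.21 had a 95% interval of -0.05 to 0.46 (adjusted p = 0.202 by edgeR). TPI1, the triose isomerase, held 848 to 930 CPM in Control and 913 to 1103 CPM in PM2.5 (0.21, 95% interval -0.01 to 0.43, adjusted p = 0.135), and passed with library totals alone (adjusted p = 0.0413). PKM, the pyruvate kinase, held 2384, 2267 and 2432 CPM in Control and 2808, 2492 and 3099 CPM in PM2.5. The PKM groups did not overlap, with a log2 fold change of 0.25 (95% interval 0.01 to 0.48, adjusted p = 0.0978 by edgeR). PKM passed with DESeq2 (0.0424), with library totals alone (0.0385) and without Control replicate 3 (0.0349). The counts are per gene, so the PKM1 and PKM2 splice forms were not analysed here.

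Pseudogenes named after GAPDH (62 of them) took 0.264% to 0.296% of the reads of gene and pseudogenes together in each library. Those of TPI1 took 0.843% to 0.997% and those of LDHA 0.232% to 0.356%. Reads that matched several copies cannot be traced in the table.

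**Figure D3:**
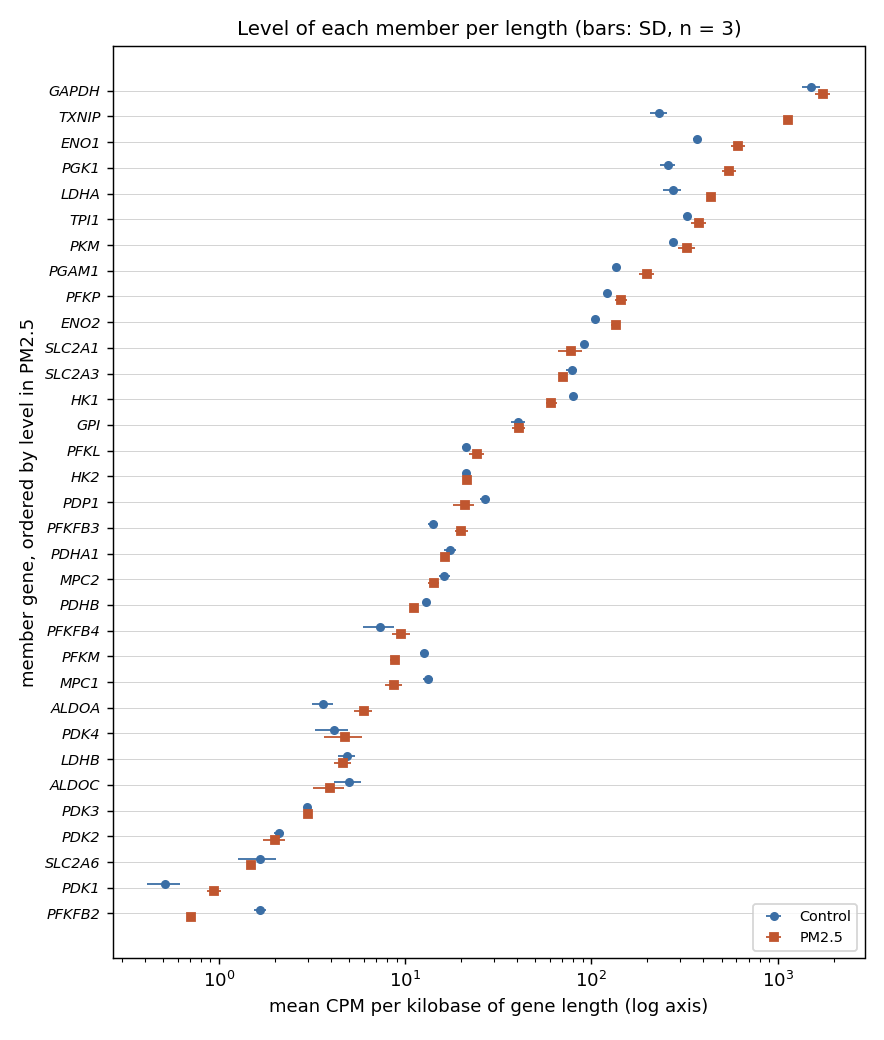
Mean CPM per kilobase of gene length (x axis, log scale) of the 33 genes, ordered by level in PM2.5 (y axis); circles are Control, squares PM2.5, bars SD over 3 libraries. TXNIP stands at 230 in Control and 1138 in PM2.5, next to GAPDH at 1521 and 1756.

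Levels of different genes were compared per kilobase of the deposited gene length, which is the union of all annotated exons and so lowers the level of genes with many long isoforms. GAPDH was the highest of the group in both conditions, at 1521 ± 169 CPM per kilobase in Control and 1756 ± 165 in PM2.5 (SD, n = 3 each). In Control ENO1 (368 ± 18.8) and TPI1 (327 ± 15.8) came next, and PKM, LDHA and PGK1 lay at 275, 273 and 258, closer to each other than the spread of LDHA (31.0) and PGK1 (22.8). In PM2.5 TXNIP took the second place at 1138 ± 25.4, followed by ENO1 (616 ± 52.8), PGK1 (550 ± 47.4) and LDHA (439 ± 7.66). TPI1 (377 ± 35.9) and PKM (327 ± 35.4) came after them. ENO1 and PGK1 varied together over the PM2.5 libraries, with ENO1 above PGK1 per kilobase in each. Their separate spreads therefore do not bear on their order, which was not tested. PFKFB2 (0.712) and PDK1 (0.940) were the lowest in PM2.5.

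Lactate dehydrogenase turns pyruvate into lactate and regenerates the NAD+ that GAPDH needs. LDHA, which favours lactate formation, rose from 1572, 1597 and 1918 CPM to 2702, 2698 and 2782 CPM. Control replicate 3 was the highest of its group but below all PM2.5 libraries, and the log2 fold change was 0.69 ± 0.11 (SE, n = 3 each), or 1.61-fold (adjusted p = 0.000178 by edgeR). LDHB held 12.7 to 15.7 CPM in Control and 12.2 to 15.04 CPM in PM2.5, with a 95% interval of -0.37 to 0.21 for the log2 fold change. The same-strand gene AC010197.2, with 0 counts in every library, covers 33.4% of the exonic bases of LDHB, so the LDHB level and the ratio of LDHA to LDHB are uncertain.

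The 4 PDK kinases hold pyruvate dehydrogenase inactive, and 1 of them rose. PDK1, a known hypoxia-inducible form, went from 6.92, 6.66 and 9.39 CPM to 13.4, 15.4 and 13.3 CPM (log2 fold change 0.87 ± 0.16, SE, adjusted p = 0.000651 by edgeR). Control replicate 3 was again the highest Control library, below all PM2.5 libraries. PDK2 held 9.40 to 12.3 CPM and PDK3 14.3 to 15.3 CPM over all 6 libraries, and neither passed the test. PDK4, the form induced by fasting, held 20.9, 20.8 and 14.3 CPM in Control and 23.5, 25.0 and 15.9 CPM in PM2.5, with replicate 3 of each group the lowest. SAMD14 on the opposite strand covers 38.6% of the exonic bases of PDK2 and had 3 to 28 counts per library. PDK1 made up 5.35% ± 1.43 of the PDK transcripts per kilobase in Control and 8.81% ± 0.66 in PM2.5 (SD, n = 3 each), behind PDK4 at 42.3% ± 6.13 and 44.1% ± 6.45.

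Of the 5 genes that carry pyruvate into mitochondria or form and reactivate pyruvate dehydrogenase, 2 fell and 0 rose, beside 15.8% of all genes called lower. MPC1, a subunit of the mitochondrial pyruvate carrier, fell from 19.2, 21.6 and 20.8 CPM to 13.6, 12.1 and 14.9 CPM (log2 fold change -0.60 ± 0.13, SE, adjusted p = 0.00204 by edgeR), with no overlap. Its partner MPC2 held 39.6, 44.6 and 40.4 CPM in Control and 36.9, 38.3 and 33.5 CPM in PM2.5. All MPC2 values in PM2.5 lay below those in Control, but the test was not passed (-0.20, 95% interval -0.41 to 0.02, adjusted p = 0.161 by edgeR).

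PDP1, the phosphatase that switches pyruvate dehydrogenase back on, fell from 144, 159 and 146 CPM to 116, 132 and 102 CPM (log2 fold change -0.36 ± 0.10, SE, adjusted p = 0.0153 by edgeR). The groups did not overlap, but the call was lost without Control replicate 2 (0.0739), PM2.5 replicate 1 (0.0765) or PM2.5 replicate 3 (0.0637). PDHB, the beta subunit of the enzyme, held 60.4, 62.6 and 59.3 CPM in Control and 51.1, 52.3 and 55.5 CPM in PM2.5, lower in all PM2.5 libraries but with an adjusted p of 0.115 by edgeR. PDHA1, the alpha subunit, held 71.8 to 82.8 CPM in Control and 70.4 to 76.3 CPM in PM2.5. MAP3K15 on the opposite strand covers 21.3% of the exonic bases of PDHA1, and DCAF6 22.5% of those of MPC2. Whether the counting used strand is unknown here, so reads of such pairs cannot be told apart.

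**Figure D4:**
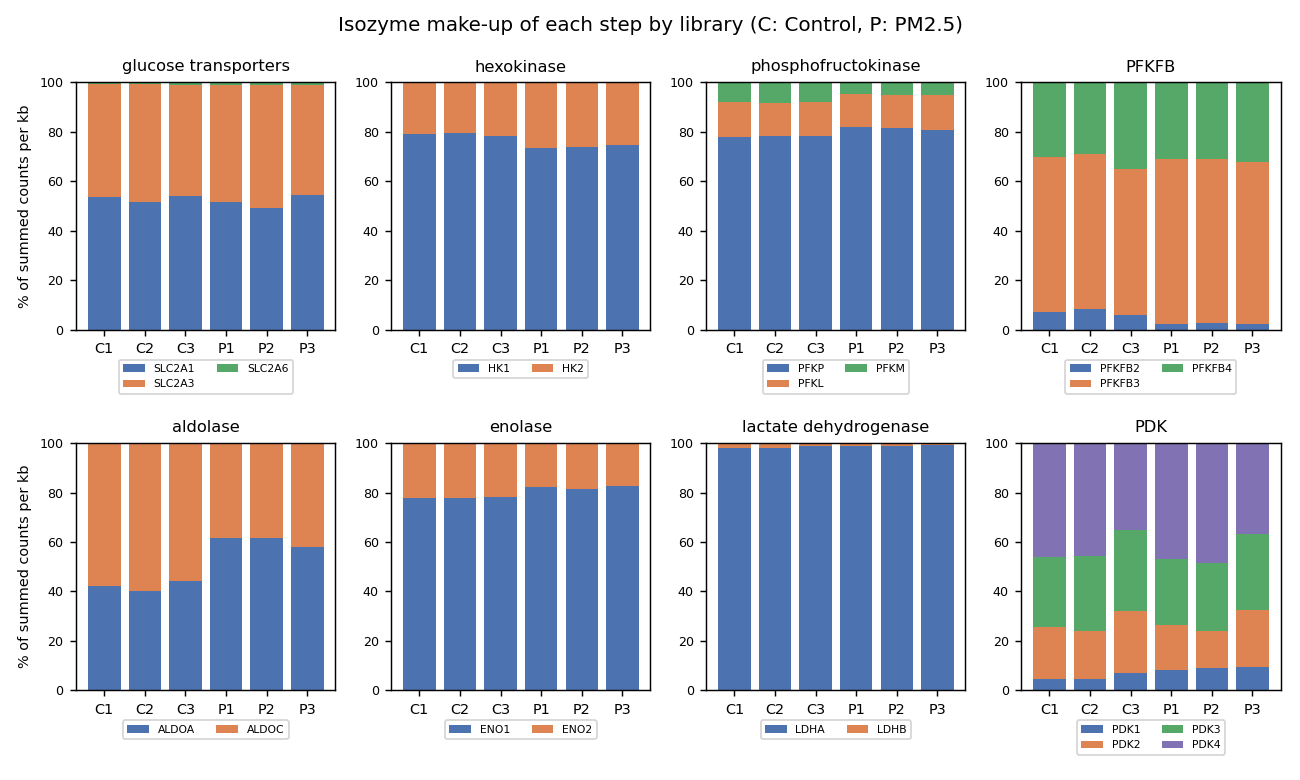
Share of each isozyme in the counts per kilobase of its step (y axis, percent), by library (x axis; C1 to C3 Control, P1 to P3 PM2.5); each bar sums to 100. The HK1, PFKM and PFKFB2 portions are smaller in the PM2.5 libraries, and the ENO1 and PDK1 portions larger.

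The make-up of each step by isozyme was compared over libraries with an exact permutation test (two-sided), which with 3 against 3 cannot give a p below 0.1. Of the 21 shares 13 did not overlap between the groups, the shares of both members of a pair being counted. In a step of 2 genes the shares are complements, so both separate together. Beside this, the levels of 44.3% of all genes tested did not overlap in either direction. No such background was computed for shares, so the count is a description only. Each of these reached the smallest possible p of 0.1, or 0.189 after Benjamini-Hochberg adjustment over 17 shares, so none passed. The largest shift was that of ALDOA, from 42.2% ± 1.96 to 60.4% ± 2.15 of the aldolase transcripts (SD, n = 3 each), which carries the doubt about ALDOA reads given above. Some shifts depended on the scaling by length. With shares of raw counts the PDK1 shift was 8.21 percentage points in place of 3.46, that of PFKFB2 -7.63 in place of -4.87 and that of LDHA 0.36 in place of 0.74. The shares of SLC2A1, SLC2A3, PFKL, PFKFB4, PDK2, PDK3 and PDK4 overlapped between the groups, as did that of SLC2A6.

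A further list of 42 genes took in other isozymes, reverse reactions, branch enzymes and regulators. Of these 29 passed the filter on low counts, and 5 rose and 7 fell. That is 41.4% of those tested, beside 31.9% of all genes (16.1% higher and 15.8% lower). This list was also chosen with earlier results of these data known. The 13 not tested had at most 18 counts in any library. TIGAR had 2 to 18 counts, and HK3, PCK1 and PGAM2 had 0 in every library. Without PM2.5 replicate 1 the number that fell was 3, where over all genes 1448 fell in place of 2365. Without PM2.5 replicate 2 the number that rose was 3, where over all genes 1862 rose in place of 2410.

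Beside ARRDC4, the rises were of transporters and of a reverse enzyme. SLC2A13, a myo-inositol carrier, rose from 14.3 ± 2.14 to 23.8 ± 4.18 CPM, SLC2A12 from 0.679 ± 0.05 to 1.70 ± 0.43 CPM and SLC2A8 from 6.92 ± 0.76 to 9.65 ± 1.64 CPM (SD, n = 3 each). FBP1, which reverses the phosphofructokinase step, rose from 2.28 ± 0.27 to 4.02 ± 0.27 CPM (adjusted p = 0.00844 by edgeR). The SLC2A12 call was lost without PM2.5 replicate 2 (adjusted p = 0.0573), and that of SLC2A8 in 5 of 6 fits that left out 1 library, all except that without PM2.5 replicate 3. The SLC2A8 and MLX calls were also lost when the replicate number was added as a block (adjusted p = 0.0558 and 0.0828).

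The falls included HKDC1, a low-abundance hexokinase, from 4.04 ± 1.25 to 1.26 ± 0.13 CPM (log2 fold change -1.68 ± 0.27, SE, adjusted p = 0.000207 by edgeR). LDHD, which oxidises D-lactate, fell from 10.6 ± 1.05 to 6.44 ± 0.07 CPM, and G6PC3, a glucose 6-phosphatase, from 67.5 ± 7.12 to 47.6 ± 4.96 CPM (SD, n = 3 each). On the pyruvate dehydrogenase side DLAT, the acetyl-transferring core subunit, fell from 52.9, 54.9 and 57.2 CPM to 43.6, 44.9 and 40.99 CPM and the phosphatase PDP2 from 37.6 ± 5.11 to 28.04 ± 1.63 CPM (SD, n = 3 each), both calls lost without PM2.5 replicate 1 (adjusted p = 0.0624 and 0.0808). DLD and PDHX of the same complex did not pass. PGM1, which links glucose phosphates to glycogen, fell from 127 ± 5.06 to 103 ± 5.36 CPM, a call lost in 4 of 6 fits that left out 1 library, those without Control replicate 1 or 2 or PM2.5 replicate 1 or 2.

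HIF1A, the oxygen-regulated subunit whose control is mainly of the protein, held 252 to 295 CPM in Control and 230.6 to 341 CPM in PM2.5, and MYC 141 to 238 and 203 to 219 CPM. Neither passed the test. The log2 fold changes had 95% intervals of -0.25 to 0.28 for HIF1A and -0.19 to 0.40 for MYC.

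Control replicate 3 was the highest Control library for PGK1, ENO1, LDHA, PFKFB3, PFKFB4, PDK1 and SLC2A6, and the lowest for GAPDH, TXNIP, PDK4 and GPI. Its part in the results was tested by leaving it out: without it 12 of the 33 genes rose and 7 fell, and calls over all genes also increased, from 2410 to 2600 higher and from 2365 to 2680 lower. TXNIP, PGK1, ENO1, LDHA, PGAM1, ALDOA, PFKFB3, PDK1, PFKFB2, PFKM and MPC1 passed the test in all 6 fits that left out 1 library.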

How the data were processed

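RNA was measured in 3 Control and 3 PM2.5 libraries of MDA-MB-231 (NEBNext kit, Illumina NovaSeq, per the labels' protocols). The authors deposited raw counts per gene, with gene lengths and coordinates, per the file headers. The submitters' processing notes name GRCh38. Aligner, counter, strand: not given in the sources used here. Each of the 58735 identifiers matched, with coordinates and length, GENCODE release 29, which gave the exon overlaps. Promoter windows came from RefSeq (GRCh38.p14).

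Columns were assigned to libraries by title. The members and gene lists were chosen with earlier results of these data known. Counts were fitted in R 4.3.3 with edgeR 4.0.16: filterByExpr (minimum count 10, total 15; 14975 genes left), TMM factors, glmQLFit and glmQLFTest with group as the only term, Benjamini-Hochberg adjustment over all tested genes, called at 0.05. Standard errors were derived from the fitted log2 fold change and its F statistic. Alternatives were DESeq2 1.42.0, limma-voom (limma 3.58.1), upper-quartile factors, library totals alone, no filter, a stricter filter (at least 1 CPM in 3 libraries), a replicate block and leaving out each library. The fit was also run on counts simulated from its own trended dispersion. That simulation had no library standing apart as Control replicate 3 did, and no result here rests on it. Isozyme shares (17, 1 of each pair) were compared by exact permutation. Replicates differed beyond sampling noise (chi-square per degree of freedom 5.58 to 33.1). A count of 0 allows up to 0.0865 to 0.0942 CPM (3 counts of the total), counting error only. The genes named are all 33 members and the called genes of the further list, with a marker list for the line and other cell types. Regulators and untested genes of the further list that were not called were named after their values were seen.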

Additional observations from a re-analysis of the deposited data

How the results depend on the processing

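Between 8 and 12 members rose and between 3 and 7 fell when 1 library was left out. In the same fits the genes higher over all tested ran from 1797 to 2600 against 2410, and those lower from 1448 to 2680 against 2365. The further list ran from 3 to 5 higher and 3 to 7 lower. With DESeq2 12 members rose and 5 fell, where over all genes 2597 rose and 2365 fell. With limma-voom 11 members rose and 5 fell, where over all genes 2396 rose and 2296 fell. Of the values of single genes under the alternatives, 533 kept direction and call, 30 lost the call, 15 gained it and 7 changed sign. Those that changed sign belong to genes not called. Without 1 library, SLC2A6 ran from -0.25 to 0.054 (the highest without Control replicate 3), HK2 from -0.014 to 0.052 (below 0 without Control replicate 2, at -0.0089, or PM2.5 replicate 3), GPI from -0.061 to 0.066 (below 0 without Control replicate 3 or PM2.5 replicate 3, at -0.057) and PDK2 from -0.17 to 0.018 (above 0 without PM2.5 replicate 2). GPI was -0.0041 with no filter. The cause was not tested.

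With the replicate number as a block, 10 members rose and 5 fell, and over all genes 1951 rose and 1826 fell. Among the named genes the block ended the calls of SLC2A8 and MLX only. Deviations of same-numbered libraries correlated at -0.002, -0.05 and -0.12, and those of differently numbered libraries at -0.11 to 0.14. With 3 libraries a group these values cannot show whether the numbers pair the libraries, and the labels do not say. Isozyme shares from raw counts in place of counts per kilobase did not overlap for 14 of 21, beside 44.3% of all genes by level. With 3 libraries a group, log2 fold changes of the members had standard errors of 0.09 to 0.19, which limits what the test can detect.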
